A study of Mus musculus with 32 samples.

Results

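The 10 genes described here are widely used markers of macrophages (*Cd68*, *Adgre1*, *Lyz2*, *Itgam*, *Csf1r*, *Cd14*, *Laptm5*, *Tyrobp*, *Fcer1g* and *Mrc1*), taken by symbol from a table of 32544 genes, in which each symbol has 1 line. They were measured by bulk RNA-Seq of poly(A) RNA from the kidney cortex of 32 mice aged 25 weeks, 1 library per mouse. All mice came from the Col4a3tm1Dec line on the C57BL/6J background, in which loss of the α3 chain of type IV collagen gives a model of Alport syndrome, a hereditary disease of the glomerular basement membrane. Control mice were *Col4a3*+/-, so they also carried 1 copy of the mutant allele, and Alport mice were *Col4a3*-/-. Mice of each genotype and sex received a purified diet alone (vehicle) or the same diet mixed with nicotinamide riboside (NR), a precursor of NAD+, which gives 8 groups of 4 mice. Total counts per library were 16621944 to 27778797, and levels are given in CPM, each gene's count relative to a library size scaled by the trimmed mean of M values.

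Macrophages are phagocytes that derive either from embryonic precursors that settle in the tissue or from monocytes of the blood, and they survive on signals through the receptor that *Csf1r* encodes. In the kidney they lie between the tubules and around glomeruli, take up debris, present antigen and release cytokines, and their number is known to rise in chronic kidney disease. None of the 10 genes is expressed by macrophages alone, since monocytes, neutrophils and dendritic cells share most of them and *Mrc1* is also made by some endothelial cells.

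The targeted gene was read first as a check of the labels. *Col4a3* mRNA was 201, 197, 181 and 151 CPM in the 4 vehicle-treated male controls and 56.5, 66.5, 54.6 and 83.2 CPM in vehicle-treated male Alport mice. In females the values were 160.2, 140.1, 139.5 and 163 CPM in vehicle-treated controls and 57.7, 79.2, 59.7 and 60.1 CPM in Alport mice, so vehicle-treated genotypes did not overlap in either sex. NR-treated male controls had 59.3, 94.1, 75.2 and 159.6 CPM, of which replicates 1 and 3 lay within the range of the 16 Alport mice (48.8 to 83.2 CPM). The ratio of *Col4a3* to its neighbor *Col4a4*, chosen after that overlap had been seen, was 0.537 to 0.822 in the 16 controls and 0.293 to 0.413 in the 16 Alport mice, with no overlap. The tissue label was matched by abundant tubular transcripts, among them *Slc34a1*, the phosphate transporter of the proximal tubule, at 7462 ± 715 CPM (SD, n = 4) in vehicle-treated male controls.

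In the GENCODE M21 annotation of GRCm38, the build named mm10 in the submitters' processing notes, the 10 genes lie on different chromosomes except *Csf1r* and *Cd14*, which share one, and *Itgam* and *Tyrobp*, which share another. *Cd14* has 1 annotated exon, and *Itgam* (30 exons) and *Mrc1* (29 exons) have the most. Per kilobase of exon, the most abundant transcript in vehicle-treated male Alport mice was *Lyz2* (174 CPM per kb), followed by *Cd14* (23.5 CPM per kb), and *Mrc1* was the least abundant (4.49 CPM per kb). In vehicle-treated male controls *Lyz2* was again highest (11.1 CPM per kb), and *Csf1r* was next (6.84 CPM per kb). Exons of *Csf1r* overlap those of *Hmgxb3* on the opposite strand by 873 bases, and the strand used in counting is not given in the sources used here, so reads from the shared bases could not be assigned to either gene and the level of *Csf1r* is uncertain by that share. *Hmgxb3* itself was 38.3 ± 1.68 CPM (SD, n = 4) in vehicle-treated male controls and 31.5 ± 4.36 CPM in vehicle-treated male Alport mice. Of the 5024 exon bases of *Itgam*, 3450 overlap exons of *Gm49368*, a predicted gene on the same strand. Reads from these bases could not be assigned either, so the level of *Itgam* is uncertain by that share. Reads of *Lyz2* may also be shared with its close paralog *Lyz1*, for which the highest count in any mouse was 128, against 8816 for *Lyz2*.

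All 10 genes passed the low-count filter in every comparison. The lowest count of any of them in a mouse was 22 (*Tyrobp*), so none was at the limit of detection. The 4 Alport group means lay above the 4 control means for each of the 10 genes. Vehicle-treated male controls had the lowest mean for 9 of 10 genes, and NR-treated male controls for *Csf1r*. Among Alport mice the order from the lowest mean was NR-treated females for all 10 genes, then NR-treated males for 9 of 10, and the highest mean was that of vehicle-treated males for 8 genes and of vehicle-treated females for *Cd68* and *Cd14*. For *Cd68* the means in CPM (± SD, n = 4) ran from 2.10 ± 0.380 in vehicle-treated male controls through 2.36 ± 0.555 in NR-treated and 2.53 ± 1.15 in vehicle-treated female controls to 2.98 ± 1.81 in NR-treated male controls. Alport means followed at 12.1 ± 7.59 in NR-treated females, 13.5 ± 7.92 in NR-treated males, 15.03 ± 2.47 in vehicle-treated males and 16.2 ± 4.08 in vehicle-treated females. Neighbors in this order differed by less than their SDs among the 4 control groups and among the 4 Alport groups. Each of the 8 vehicle-treated Alport mice lay above each of the 16 controls for all 10 genes, whereas all 16 Alport mice did so only for *Cd14* and *Mrc1*. For the other 8 genes 12 (*Csf1r*) to 15 (*Cd68* and *Itgam*) of 16 Alport mice were above every control. The share of all genes that separate from the 16 controls in these ways is not given here.

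**Figure D1:**
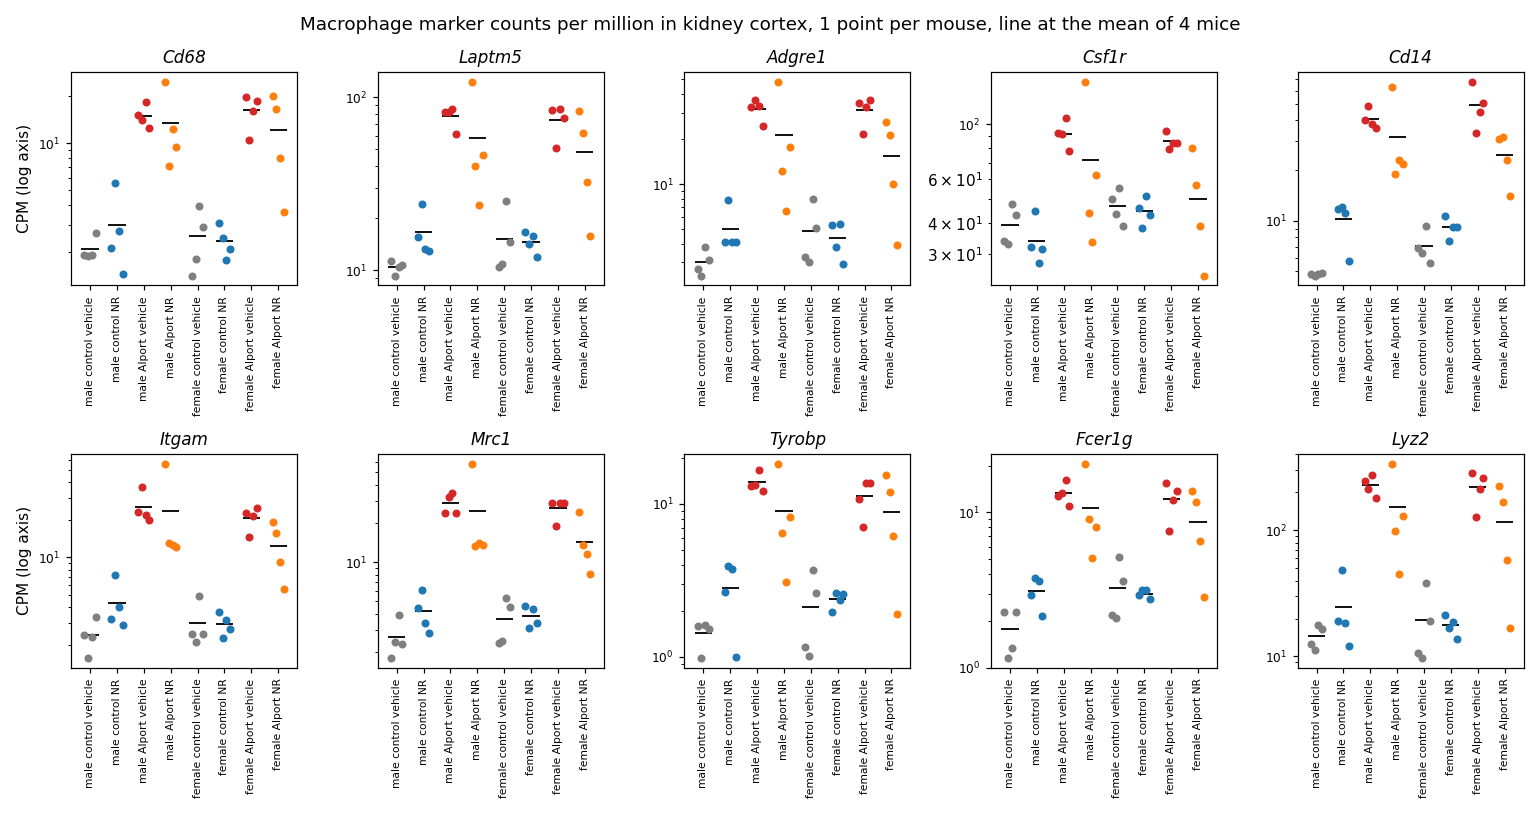
CPM, on a log axis, of the 10 macrophage markers in kidney cortex, with 1 point per mouse and a line at the mean of the 4 mice in each of the 8 groups. Vehicle-treated Alport mice (red) lie above all control mice for each gene, and NR-treated Alport mice (orange) spread over the widest range.

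The first comparison asked how marker expression differed between Alport and control mice on vehicle. All 10 genes rose in Alport mice of both sexes, and for all 10 the 4 Alport mice lay above the 4 controls. In males, 26.8% of the 15286 genes tested were called higher, meaning an adjusted p under 0.05 in edgeR's quasi-likelihood test with Benjamini-Hochberg adjustment over all genes, and 22.1% were higher with no overlap of the groups. In females, 24% of 15709 genes were called higher and 20.7% were higher with no overlap. The median log2 fold change (log2FC) of the 10 genes was 3.27 in males and 2.72 in females, where the median over all genes tested was −0.0013 and −0.00083. In these bulk samples, more cells of a type and more RNA per cell cannot be told apart, and neither can fewer cells and less RNA per cell.

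*Cd68* and *Laptm5* encode membrane proteins of lysosomes. *Cd68*, a heavily glycosylated protein of late endosomes and lysosomes and a standard histological marker of phagocytes, was 1.91, 1.88, 1.92 and 2.66 CPM in vehicle-treated male controls and 15.1, 14.04, 18.4 and 12.6 CPM in male Alport mice. In females it was 1.41, 1.80, 3.96 and 2.93 CPM in controls and 19.7, 10.5, 16.2 and 18.6 CPM in Alport mice. The lowest Alport mouse was above the highest control by a wide margin in both sexes, at 12.6 against 2.66 CPM in males and 10.5 against 3.96 CPM in females. *Cd68* rose with a log2FC of 2.93 (SE 0.17; edgeR adjusted p = 1.58e-07) in males and 2.72 (SE 0.30; edgeR adjusted p = 9.47e-05) in females. *Laptm5*, which sorts receptors of immune cells to lysosomes for breakdown, was 11.3, 9.32, 10.5 and 10.8 CPM in male controls and 81.8, 82.6, 85.0 and 61.5 CPM in male Alport mice. Female controls had 10.4, 10.9, 25.2 and 14.6 CPM and female Alport mice 84.6, 50.7, 85.3 and 75.4 CPM. Replicate 4 was the lowest of the male Alport mice and replicate 2 the lowest of the female ones, and replicate 3 was the highest female control, yet the genotypes did not overlap. The increase was 7.90-fold in males (edgeR adjusted p = 1.02e-08) and 4.95-fold in females (edgeR adjusted p = 1.33e-04).

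*Lyz2* encodes the secreted lysozyme of macrophages and neutrophils, which cleaves bacterial cell walls. It was 12.5, 11.3, 17.8 and 16.7 CPM in vehicle-treated male controls and 246, 214, 274 and 181 CPM in male Alport mice. The corresponding female values were 10.6, 9.72, 38.6 and 19.0 CPM and 283, 129, 215 and 262 CPM. Female control replicate 3 and female Alport replicate 2 came closest to each other, and no mouse crossed over. *Lyz2* had the largest log2FC of the 10 genes in both sexes, 4.06 (SE 0.17; edgeR adjusted p = 1.79e-08) in males and 3.54 (SE 0.43; edgeR adjusted p = 1.55e-04) in females, which are 16.7-fold and 11.6-fold.

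The genes *Adgre1*, *Csf1r*, *Cd14*, *Itgam* and *Mrc1* encode receptors at the cell surface. *Adgre1*, the adhesion receptor known as F4/80, was 2.71, 2.44, 3.80 and 3.09 CPM in vehicle-treated male controls and 32.5, 36.4, 33.5 and 24.4 CPM in male Alport mice. It was 3.26, 3.004, 7.999 and 5.08 CPM in female controls and 34.9, 21.4, 33.0 and 36.3 CPM in female Alport mice. The groups were far apart, and the log2FC was 3.48 (SE 0.16) in males and 2.73 (SE 0.29) in females. *Csf1r*, the receptor for the growth factors CSF1 and IL-34, stood at 34.0, 33.0, 47.9 and 43.1 CPM in male controls and 91.7, 91.2, 106 and 77.8 CPM in male Alport mice. Female controls were at 50.1, 43.5, 55.2 and 38.9 CPM and female Alport mice at 93.6, 79.4, 84.1 and 83.9 CPM. With the second-highest level per length in male controls, it had the smallest increase of the 10 genes, 2.46-fold in males (edgeR adjusted p = 9.24e-06) and 1.86-fold in females (edgeR adjusted p = 1.28e-04), and was the only member under 2-fold in females. *Cd14*, the coreceptor that hands bacterial lipopolysaccharide to TLR4, varied least among the male controls at 4.84, 4.70, 4.83 and 4.90 CPM and reached 40.1, 48.8, 37.9 and 36.0 CPM in male Alport mice. In females *Cd14* was 6.85, 6.42, 9.33 and 5.58 CPM in controls and 67.9, 33.3, 44.9 and 50.8 CPM in Alport mice. It had the smallest adjusted p of the 10 genes, with a log2FC of 3.16 (SE 0.11; edgeR adjusted p = 7.30e-09) in males and 2.84 (SE 0.22; edgeR adjusted p = 1.91e-05) in females.

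*Itgam*, the αM chain of the β2 integrin CR3, also known as CD11b, was 2.39, 1.58, 2.32 and 3.33 CPM in vehicle-treated male controls and 23.1, 36.7, 21.8 and 20.03 CPM in male Alport mice. Female controls had 2.44, 2.14, 4.90 and 2.47 CPM and female Alport mice had 22.7, 14.6, 21.4 and 24.6 CPM. Replicate 2 was the highest of the male Alport mice, and the log2FC was 3.49 (SE 0.24) in males and 2.83 (SE 0.26) in females. *Mrc1*, the mannose receptor CD206 that is often used for tissue-resident and alternatively activated macrophages, was 1.81, 2.39, 3.90 and 2.33 CPM in male controls and 24.2, 31.8, 34.5 and 23.9 CPM in male Alport mice. Among females *Mrc1* was 2.36, 2.44, 5.29 and 4.53 CPM in controls and 28.8, 19.1, 29.0 and 29.0 CPM in Alport mice. Female Alport replicate 2 lay apart from the other 3, which were within 28.8 to 29.0 CPM, and was still 19.1 CPM against a highest control of 5.29 CPM. The log2FC of *Mrc1* was 3.54 (SE 0.21; edgeR adjusted p = 1.86e-07) in males and 2.89 (SE 0.26; edgeR adjusted p = 3.28e-05) in females.

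The adaptors TYROBP (DAP12) and FCER1G (the common γ chain of Fc receptors) have immunoreceptor tyrosine-based activation motifs, through which activating receptors signal to the kinase SYK. *Tyrobp* was 1.59, 0.983, 1.63 and 1.52 CPM in vehicle-treated male controls and 13.2, 13.3, 16.8 and 12.2 CPM in male Alport mice. In females it was 1.16, 1.01, 3.73 and 2.61 CPM and 10.9, 7.05, 13.8 and 13.7 CPM. The log2FC was 3.37 (SE 0.18) in males and 2.45 (SE 0.38) in females, without overlap in either sex. *Fcer1g* was 2.29, 1.15, 1.33 and 2.28 CPM in male controls and 12.8, 13.3, 16.1 and 11.02 CPM in male Alport mice. Its female values were 2.18, 2.10, 5.18 and 3.61 CPM in controls and 15.5, 7.61, 12.03 and 13.7 CPM in Alport mice. Female control replicate 3 and female Alport replicate 2 were the nearest pair, at 5.18 and 7.61 CPM. *Fcer1g* rose with a log2FC of 3.01 (SE 0.22; edgeR adjusted p = 9.24e-07) in males and 1.93 (SE 0.30; edgeR adjusted p = 5.80e-04) in females.

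Fold changes were smaller in females than in males for all 10 genes, and this difference was tested as the sex-genotype interaction in the 16 vehicle-treated mice. No marker passed (adjusted p under 0.05 and at least 2-fold), against 0.285% of 16152 genes in either direction, with 4 of the 10 and 1940 of all genes at an unadjusted p under 0.05 in edgeR, and DESeq2 called 0 of 10 markers and 114 genes. The median difference, female minus male log2FC, was −0.69 for the 10 genes and −0.054 over all genes tested. The largest was that of *Fcer1g* (−1.11, SE 0.41; edgeR adjusted p = 0.261) and the smallest that of *Cd68* (−0.25, SE 0.37; edgeR adjusted p = 0.880). Female control replicate 3 had the highest level of its group in all 10 genes, with a summed level of 159 CPM against 90.8, 83.1 and 99.3 CPM in replicates 1, 2 and 4, and without it the median difference was −0.34.

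**Figure D2:**
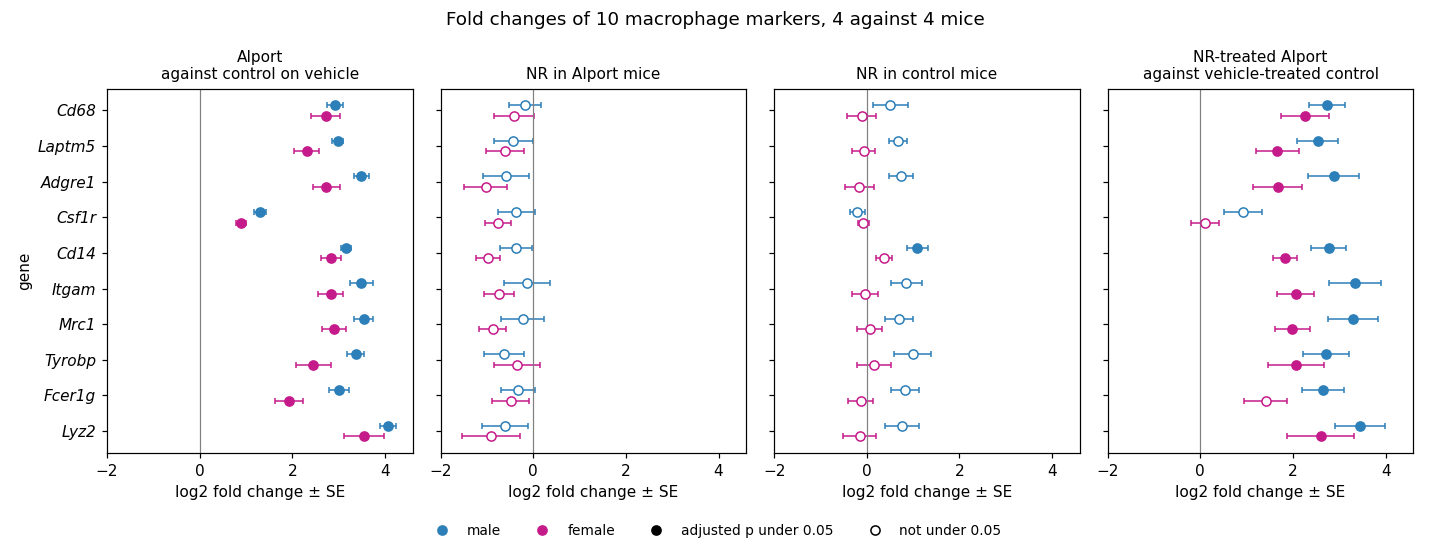
Log2 fold changes with standard errors of the 10 macrophage markers in the 4 comparisons made within each sex, 4 against 4 mice each. All 20 points of the Alport against control comparison are filled (adjusted p under 0.05), and none of the 20 points for NR in Alport mice is.

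Most partners of the marker proteins rose on vehicle in Alport mice, and each list is given as the number called of the number tested. Of the ligands of CSF1R and the myeloid transcription factors, 4 of 6 rose in males and 5 of 6 in females, with median log2FC 1.5 and 1.40. The ligand *Csf1* rose by a log2FC of 2.35 (edgeR adjusted p = 7.73e-07) in males and 1.71 (edgeR adjusted p = 3.75e-05) in females, and the other ligand, *Il34*, by 1.90 and 2.93. *Spi1*, which encodes the macrophage regulator PU.1, rose from 1.77 ± 0.640 to 13.5 ± 2.07 CPM (SD, n = 4) in males and from 2.99 ± 0.896 to 13.95 ± 2.45 CPM in females. *Irf8*, a transcription factor of monocytes and dendritic cells, rose by 1.11 and 1.10 on the log2 scale, and *Cebpb* was called in neither sex. The sex-genotype interaction was called for none of the 6.

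Receptors that signal through TYROBP or FCER1G rose in 5 of 5 tested in males and 5 of 6 in females, with median log2FC 2.38 and 2.24. Among them were the Fc receptors *Fcgr3*, the most abundant (log2FC 2.98 in males and 2.76 in females), and *Fcgr1* (3.62 and 2.73), and *Clec4e* was below the count filter in males and not called in females. The list of kinases and phospholipase C downstream of the adaptors, 6 of 6, rose in both sexes, among them *Syk* (3.08 and 2.54), the abundant *Plcg2* (0.48 and 0.40) and *Lyn* (0.96 and 0.91). The partner of *Itgam* in CR3, *Itgb2*, rose by 2.95 and 2.33 on the log2 scale, as did the other β2 integrins and their ligand *Icam1*, 4 of 4 genes in each sex. In the endotoxin receptor complex of CD14, 4 of 5 genes rose in each sex, including *Tlr4* (2.17 and 1.38) and *Myd88* (0.78 and 0.66), and *Ly96* was not called (0.36 and 0.37). Phagocyte effectors rose in 6 of 6, led by level by the pore-forming *Mpeg1* (3.57 and 2.85) and the lysosomal protease *Ctss* (3.75 and 3.0).

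Lists that mark states of macrophages were mixed. Among 6 genes used for resident kidney macrophages, 5 rose in both sexes, with *C1qa* at a log2FC of 3.43 in males and 2.62 in females, while *Mertk*, the most abundant of them and a receptor for apoptotic cells that other kidney cells may express too, was −0.12 in males (edgeR adjusted p = 0.188) and fell in females (−0.29; edgeR adjusted p = 0.00551). Of 6 genes used for recruited monocytes, 5 rose in both sexes, among them the chemokine receptors *Ccr2* (3.04 and 2.44) and *Cx3cr1* (3.48 and 2.50), and *Ly6c2* was not called. Scavenger receptors and genes of alternative activation rose in 3 of 5 tested in each sex, among them *Msr1* in both sexes, *Cd163* and *Retnla* in males and *Chil3* in females. *Folr2*, the most abundant gene of that list, fell in females (−0.90; edgeR adjusted p = 0.00447) and was not called in males (−0.32; edgeR adjusted p = 0.395). None of these 3 lists had a gene called in the sex-genotype interaction.

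Markers of other cells moved with the macrophage markers on vehicle, and their part in the result was not tested. Genes of leukocytes in general rose in 5 of 5 in both sexes, with *Lcp1* the most abundant, and their summed level per mouse was 45.5, 46.5, 48.1 and 53.8 CPM in controls and 217, 216, 208 and 155 CPM in Alport mice in males. In females this sum was 45.6, 47.8, 84.5 and 58.6 CPM in controls and 212, 142, 221 and 217 CPM in Alport mice. The genotypes did not overlap in either sum. T cell genes rose in 6 of 6 in both sexes, *Cd3d* being the most abundant, with sums of 5.69, 5.34, 3.75 and 7.38 CPM in controls and 26.5, 13.4, 19.6 and 12.9 CPM in Alport mice in males. Female sums were 7.33, 7.36, 10.5 and 9.01 CPM in controls and 25.3, 14.8, 23.1 and 26.3 CPM in Alport mice, again without overlap. Of 6 dendritic cell genes 5 rose in both sexes, *Zbtb46* being the most abundant, and *Siglech* was not called. Their sums were 9.83, 13.5, 11.4 and 11.8 CPM in controls and 33.4, 37.7, 36.4 and 23.8 CPM in Alport mice in males and 13.97, 14.04, 21.2 and 18.8 CPM in controls and 32.0, 24.4, 40.3 and 33.8 CPM in Alport mice in females.

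B cell genes were low, with *Cd79b* the most abundant, and rose in 3 of 3 tested in males and 1 of 3 in females. The sum was 1.06, 1.15, 1.73 and 2.05 CPM in controls and 7.66, 2.64, 3.63 and 4.62 CPM in Alport mice in males and 1.33, 1.46, 3.96 and 2.06 CPM in controls and 3.76, 2.30, 6.34 and 8.71 CPM in Alport mice in females, where the genotypes overlapped. Of 6 neutrophil genes only *Csf3r*, which monocytes also express, and *Cxcr2* passed the count filter, and *Ly6g* had 0 counts in all vehicle-treated groups except male Alport mice. *Csf3r* rose (2.98 and 2.80) and *Cxcr2*, the most abundant, fell in males (−0.59; edgeR adjusted p = 0.0498), and the summed level was 5.31, 5.26, 3.45 and 6.47 CPM in controls and 9.03, 8.44, 8.47 and 6.27 CPM in Alport mice in males, which overlapped, and 4.88, 3.45, 5.76 and 5.49 CPM in controls and 11.8, 6.63, 8.74 and 13.9 CPM in Alport mice in females. No natural killer cell gene passed the filter, and the most abundant was *Klrb1c*, with a sum per mouse of 0.478, 0.427, 0.395 and 0.809 CPM in controls and 1.01, 1.18, 0.992 and 0.610 CPM in Alport mice in males and 0.257, 0.225, 0.706 and 0.732 CPM in controls and 1.09, 0.905, 1.23 and 0.610 CPM in Alport mice in females. Of 5 mast cell and basophil genes only *Ms4a2*, the most abundant, was tested, and it rose in males (1.08) and was not called in females (0.64), while *Cma1* had 0 counts in all 4 vehicle-treated groups. *Cpa3* also had 0 counts in vehicle-treated male controls, *Fcer1a* in each vehicle-treated group but female Alport mice, and *Tpsb2* in the female vehicle-treated groups. The mast cell sums were 0.266, 0.427, 0.542 and 0.523 CPM in controls and 0.851, 0.974, 0.840 and 0.958 CPM in Alport mice in males and 0.943, 1.202, 0.784 and 1.01 CPM in controls and 2.12, 1.47, 1.34 and 1.31 CPM in Alport mice in females. Among 3 platelet genes tested *Pf4*, which macrophages can also express, rose in both sexes (2.17 and 2.49), and *Itga2b*, the most abundant, fell in males (−0.40), with sums of 9.57, 10.9, 9.27 and 11.2 CPM in controls and 9.88, 7.38, 9.16 and 8.23 CPM in Alport mice in males and 9.90, 8.19, 7.10 and 7.45 CPM in controls and 6.87, 8.86, 7.47 and 8.58 CPM in Alport mice in females.

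Genes of the tissue's own cells also differed on vehicle. Endothelial genes rose in 4 of 5 in males and 3 of 5 in females, and the most abundant, *Kdr*, was called in neither sex (0.14 and −0.15). Their summed level was 228, 244, 239 and 225 CPM in controls and 307, 319, 353 and 284 CPM in Alport mice in males and 254, 241, 306 and 304 CPM in controls and 329, 324, 296 and 318 CPM in Alport mice in females, where the genotypes overlapped. Lymphatic endothelial genes rose in 3 of 4, with *Flt4* the most abundant (0.92 and 0.67), and including *Lyve1*, which some macrophages express (2.72 and 1.42). These sums were 26.5, 26.7, 25.1 and 22.6 CPM in controls and 50.3, 49.8, 62.1 and 43.7 CPM in Alport mice in males and 34.8, 33.9, 32.8 and 36.3 CPM in controls and 57.7, 53.4, 51.5 and 60.02 CPM in Alport mice in females. Among all genes tested on vehicle, 3697 of 15286 were called lower in males and 3431 of 15709 in females. Of 8 epithelial genes 4 fell and 2 rose in both sexes. Those that fell were the proximal tubule genes *Slc34a1* (−1.08 and −0.87), *Lrp2* and *Slc5a2* and the distal tubule gene *Slc12a3*, and the podocyte gene *Nphs1* was among those that rose. The summed epithelial level, with *Slc34a1* the most abundant, was 15632, 15876, 15242 and 14095 CPM in controls and 8967, 8510.2, 7359 and 10032 CPM in Alport mice in males. In females it was 16189.8, 14779.9, 13963 and 15042 CPM in controls and 8164, 12566, 8740.3 and 9121 CPM in Alport mice, and no Alport mouse reached the controls in either sex.

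The next comparison asked how NR treatment changed the markers in Alport mice. It shares the vehicle-treated Alport mice with the comparison of genotypes, so the fold changes of both are not independent. In males the 4 NR-treated mice split: replicate 1 was above all 4 vehicle-treated Alport mice for 10 of 10 genes, and replicates 2, 3 and 4 were below all 4 for 10 of 10. The share of all genes outside the vehicle-treated range in each of these mice is not given here. The summed level of the 10 genes was 897, 263, 179.6 and 329.9 CPM in NR-treated males, against 580.3, 582, 644 and 461 CPM in vehicle-treated ones, or 158%, 46.3%, 31.7% and 58.2% of the vehicle mean. No marker was called by edgeR, none had an unadjusted p under 0.05, and DESeq2 called none, where edgeR called 0% of 15500 genes lower, with 785 genes in either direction at an unadjusted p under 0.05, and DESeq2 called 62. All 10 log2FC were negative, with a median of −0.37 (all genes tested 0.014), and for none did the groups separate, against 1.45% of genes that were lower without overlap. Without replicate 1 of the NR-treated males, edgeR called 4 of the 10 genes lower (*Itgam* −1.03, *Cd14* −0.94, *Laptm5* −1.09 and *Mrc1* −1.07) and 1.85% of 15662 genes lower, and the median log2FC was −1.05. Without replicate 2 or 3 of these mice the median was −0.23 and −0.15, with no marker called. The sign was not stable for *Itgam*, which was positive in 4 of the 8 omissions of 1 mouse (up to 0.090), and *Cd68*, which was positive in 1 (0.031, without NR-treated replicate 2).

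Replicate 1 stood apart in the individual genes as well. *Cd68* was 24.9, 7.12, 12.4 and 9.40 CPM in NR-treated male Alport mice, with a log2FC of −0.17 (SE 0.34; edgeR adjusted p = 0.967). For *Laptm5* the values were 123, 40.3, 23.8 and 46.4 CPM, and for *Lyz2* 337, 98.1, 45.4 and 129.9 CPM. The lysosomal markers and lysozyme were all highest in replicate 1, and the next mouse was replicate 3 in *Cd68* and replicate 4 in *Laptm5* and *Lyz2*. Among the surface receptors, *Adgre1* was 48.4, 12.2, 6.64 and 17.8 CPM and *Csf1r* 148, 43.8, 33.6 and 62.7 CPM. *Cd14* was 63.0, 19.1, 22.9 and 21.8 CPM, *Itgam* 55.7, 13.1, 12.5 and 12.04 CPM and *Mrc1* 57.9, 13.3, 14.1 and 13.7 CPM. In the last 3 genes replicates 2, 3 and 4 lay close together, well under the vehicle-treated mice and above all vehicle-treated controls. The adaptors *Tyrobp* (18.3, 6.49, 3.08 and 8.19 CPM) and *Fcer1g* (20.5, 9.04, 5.05 and 8.01 CPM) were lowest in replicate 3. *Tyrobp* had the largest log2FC of the 10 genes (−0.64, SE 0.43; edgeR adjusted p = 0.939).

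In females the sums of the 10 genes were 539.7, 409, 203 and 97.4 CPM with NR and 661, 373, 554 and 608 CPM with vehicle. As a share of the vehicle mean they were 98.3%, 74.5%, 37.0% and 17.7%. Replicates 3 and 4 were below all 4 vehicle-treated Alport mice in 10 of 10 genes, replicate 2 in 4 of 10, and replicate 1 in 1 of 10 (*Cd14*). As in males, the matching share of all genes in each mouse is not given here. Replicate 4 was above all vehicle-treated controls for only 3 of 10 genes, and its sum was below the mean of the vehicle-treated controls (108 CPM). No marker was called by edgeR, against 0.0891% of 15712 genes called lower. Of the 10 genes 5 had an unadjusted p under 0.05, as did 2627 of the 15712, and DESeq2 called 1 marker, *Cd14* (adjusted p = 0.0140), among 728 genes in either direction. All 10 log2FC were negative, from −1.03 (*Adgre1*) to −0.35 (*Tyrobp*), with a median of −0.75 (all genes tested 0.00049). *Cd14* was the only 1 of the 10 whose groups did not overlap, against 4.05% of genes that were lower without overlap. Without replicate 1 of the NR-treated females edgeR called *Mrc1* (−1.25; edgeR adjusted p = 0.0354) and 0.450% of 16017 genes lower, and the median log2FC was −1.05. Without replicate 4 no marker was called, the median was −0.51, and the log2FC of *Tyrobp* was −0.0094.

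*Cd14* was 31.0, 31.5, 23.0 and 14.1 CPM in NR-treated female Alport mice, and its highest mouse was below the lowest vehicle-treated one (33.3 CPM). Its log2FC was −0.98 (SE 0.26; edgeR adjusted p = 0.141). The other surface receptors were 26.0, 21.4, 9.99 and 3.93 CPM for *Adgre1*, and 80.0, 56.8, 39.0 and 24.6 CPM for *Csf1r*. *Csf1r* of replicate 4 was the lowest value of that gene in all 32 mice. *Itgam* was 19.2, 15.7, 9.17 and 5.62 CPM and *Mrc1* 24.4, 13.5, 11.5 and 8.05 CPM. The lysosomal *Cd68* was 20.1, 16.5, 8.02 and 3.63 CPM and *Laptm5* 83.1, 61.8, 32.2 and 15.7 CPM, so that replicate 1 lay within the vehicle-treated range of *Laptm5* and above it for *Cd68*. *Lyz2* had the widest range, 227, 168, 57.8 and 16.9 CPM, from within the vehicle-treated Alport mice to within the vehicle-treated controls. The adaptors followed the same order of mice, with 15.5, 11.98, 6.14 and 1.91 CPM for *Tyrobp* and 13.7, 11.6, 6.55 and 2.85 CPM for *Fcer1g*, and *Tyrobp* of replicate 1 was above every vehicle-treated female Alport mouse.

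The difference between the sexes in the response to NR was tested in the 16 Alport mice. None of the 10 genes was called in this interaction by edgeR or DESeq2, none had an unadjusted p under 0.05, and edgeR called 0% of 16189 genes, with 363 at an unadjusted p under 0.05. The median difference of the log2FC, female minus male, was −0.37, and 0.29 without replicate 1 of the NR-treated males and −0.74 without replicate 1 of the NR-treated females.

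Markers of other cells varied among these mice as well, and their part in the result was not tested. General leukocyte genes summed to 286, 99.3, 73.7 and 131 CPM with NR in male Alport mice and 208, 157, 90.1 and 70.6 CPM with NR in females, with 0 of 5 called in either sex and *Lcp1* the most abundant. T cell genes summed to 19.6, 9.33, 11.1 and 10.1 CPM with NR in males and 20.9, 16.8, 7.65 and 12.1 CPM with NR in females (0 of 6 called, *Cd3d* the most abundant), and dendritic cell genes to 40.4, 17.3, 18.5 and 22.7 CPM with NR in males and 32.8, 31.3, 23.4 and 23.5 CPM in females (0 of 6 called, *Zbtb46* the most abundant). Male epithelial sums were 5442, 11655, 5708 and 12074 CPM with NR, lowest in replicates 1 and 3. Female epithelial sums were 9169, 8782, 10572 and 10745 CPM with NR, with *Slc34a1* the most abundant and 0 of 8 genes called in either sex. Endothelial genes summed to 321, 303, 391 and 334 CPM with NR in males and 357, 363, 393 and 462 CPM with NR in females, highest in the females at replicate 4, the mouse with the lowest macrophage markers (0 of 5 called, *Kdr* the most abundant). Lymphatic endothelial genes summed to 62.7, 40.8, 42.1 and 40.6 CPM with NR in males and 56.3, 45.5, 52.1 and 56.2 CPM with NR in females, with 0 of 4 called and *Flt4* the most abundant. B cell genes summed to 5.26, 1.39, 0.965 and 2.15 CPM with NR in males and 4.18, 3.47, 2.47 and 1.68 CPM with NR in females, neutrophil genes to 13.9, 3.94, 9.20 and 8.10 and 6.43, 6.32, 7.01 and 5.65 CPM, and platelet genes to 7.06, 8.28, 6.05 and 7.52 and 7.38, 8.46, 7.56 and 4.68 CPM, with none called. Natural killer cell genes summed to 1.497, 1.51, 0.445 and 0.806 CPM with NR in males and 1.66, 0.846, 0.458 and 0.973 CPM with NR in females and mast cell genes to 1.11, 0.521, 0.520 and 0.940 and 2.11, 1.78, 0.779 and 0.599 CPM, and *Ly6g* in males, *Tpsb2* in males and *Fcer1a* in both sexes had 0 counts in all 4 NR-treated Alport mice.

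Of the lists around the 10 markers, none had a gene called with NR in Alport mice of either sex. In males the medians were −0.34 for CSF1R ligands and myeloid transcription factors, 0.042 for receptors of the adaptors, −0.36 for their kinases and phospholipase, −0.50 for β2 integrins, −0.073 for the endotoxin receptor complex and −0.26 for phagocyte effectors. Female medians were −0.39, −0.69, −0.78, −0.66, −0.30 and −0.67 in the same order. Genes of resident macrophages had medians of −0.29 in males and −0.74 in females, those of recruited monocytes −0.32 and −0.53, and those of scavenger receptors and alternative activation 0.48 and −0.16. *Mertk* was 0.20 in males and 0.22 in females, opposite in sign to *C1qa* (−0.32 and −0.77), though neither was called.

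**Figure D3:**
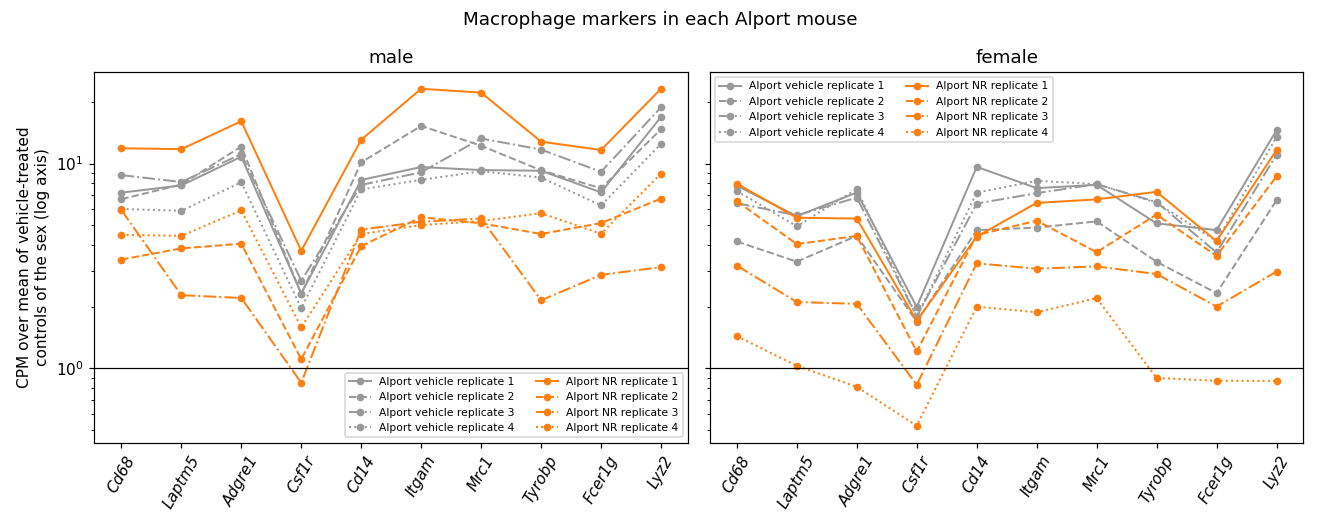
Level of each macrophage marker in every Alport mouse, as CPM divided by the mean of vehicle-treated controls of that sex, on a log axis; each line joins the 10 genes of 1 mouse, gray with vehicle and orange with NR. In males, NR-treated replicate 1 runs above all vehicle-treated mice and the other NR-treated mice run below them; in females, NR-treated replicates 3 and 4 run below.

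NR was also given to control mice, which asks whether the markers respond to it without the disease. *Cd14* rose in NR-treated male controls. It was 11.8, 12.1, 11.2 and 5.75 CPM with NR against 4.84, 4.70, 4.83 and 4.90 CPM with vehicle, so that replicates 1, 2 and 3 were far above and replicate 4 just above the vehicle-treated mice. The log2FC was 1.09 (SE 0.23; edgeR adjusted p = 0.0292). It was 1 of 10 markers called, against 4.53% of 14696 genes called in either direction, and DESeq2 called *Cd14* and *Laptm5* among 1641 genes, where edgeR called 666. The call for *Cd14* was lost without any 1 of the 4 vehicle-treated mice or without NR-treated replicate 1 or 3, with edgeR adjusted p of 0.0582 to 0.0912, and the log2FC was 1.0 to 1.3 over all 8 omissions. In the 6 omissions that lost it, edgeR called 74 to 429 genes in either direction (0.496% to 2.91%). The call was also lost with replicate number added to the fit as a block, where edgeR called 0 markers and 309 genes. Without NR-treated replicate 2 edgeR called only *Cd14* of the markers, with 5.48% of 14972 genes called, and without replicate 4 it called *Cd14*, *Laptm5* and *Tyrobp*, 3 of 10, with 12.8% of 14775 genes called. *Adgre1* (4.09, 7.79, 4.11 and 4.11 CPM with NR) and *Laptm5* (15.7, 24.3, 13.3 and 13.02 CPM with NR) also lay above all vehicle-treated male controls, with log2FC of 0.75 (SE 0.26; edgeR adjusted p = 0.125) and 0.67 (SE 0.20; edgeR adjusted p = 0.0798). Of the 14696 genes tested, 1080 were higher and 883 lower without overlap. Log2FC were positive for 9 of 10 genes, with a median of 0.75 (all genes tested −0.00022) and 7 of 10 at an unadjusted p under 0.05, as were 3399 of the 14696 genes, and *Csf1r* was −0.21.

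NR-treated male control replicate 2 was the highest of its group in all 10 genes, with a summed level of 164 CPM against 98.4, 92.2 and 76.8 CPM in replicates 1, 3 and 4, and without it the median log2FC was 0.45. *Lyz2* was 19.2, 48.5, 18.4 and 12.1 CPM, *Itgam* 3.23, 7.25, 4.01 and 2.88 CPM and *Cd68* 2.13, 5.58, 2.76 and 1.46 CPM in these mice. *Csf1r* was 32.2, 44.7, 27.7 and 31.5 CPM and *Mrc1* 4.44, 6.11, 3.38 and 2.83 CPM. The adaptors were 2.65, 3.96, 3.75 and 1.005 CPM for *Tyrobp* and 2.94, 3.78, 3.59 and 2.15 CPM for *Fcer1g*, and in both replicate 4 was the lowest. Other lists in male controls moved with NR as well, and their part was not tested. Endothelial genes, 5 of 5, rose, among them *Kdr* (0.42), the most abundant, with sums of 365, 309.8, 375 and 329.5 CPM against 228, 244, 239 and 225 CPM. Among 6 phagocyte effectors *Ctss* (1.27; edgeR adjusted p = 0.0139), *Mpeg1* (0.93) and *Cybb* (0.88) rose, and among 6 resident macrophage genes *C1qa* (1.0) and *C1qb* (0.89). Of the CSF1R ligands *Csf1* rose (0.75) and *Il34* fell (−1.3), *Flt4* was called of 3 lymphatic endothelial genes tested (0.82), and *Slc5a2* of 8 epithelial genes fell (−0.47). The epithelial sum was 11308, 13717, 11358 and 14435 CPM with NR against 15632, 15876, 15242 and 14095 CPM with vehicle. The remaining lists had no gene called in male controls.

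In female controls no marker was called with NR, 0 of 10 by edgeR and by DESeq2, with 1 of 10 at an unadjusted p under 0.05, against 6.18% of 14951 genes called in either direction and 3408 at an unadjusted p under 0.05. *Cd14* was 10.7, 7.63, 9.18 and 9.15 CPM with NR against 6.85, 6.42, 9.33 and 5.58 CPM with vehicle, which overlapped, with a log2FC of 0.37 (SE 0.17; edgeR adjusted p = 0.209). The median of the 10 log2FC was −0.074 (all genes tested −0.0091), and 0.30 without vehicle-treated replicate 3, the high mouse of that group, and −0.19 without vehicle-treated replicate 2. The summed level was 116, 94.7, 115 and 94.6 CPM with NR and 90.8, 83.1, 159 and 99.3 CPM with vehicle. Of the genes on the other lists 3 were called in female controls, *Folr2*, *Gp6* and *Slc12a3*, which fell.

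Whether the response to NR differed between Alport and control mice was tested as an interaction in the 16 mice of each sex. In males edgeR and DESeq2 called 0 of 10 markers, 5 had an unadjusted p under 0.05 in edgeR, and edgeR called 0% of 15800 genes, with 1398 at an unadjusted p under 0.05. The median difference, Alport minus control log2FC, was −1.15, and the largest was that of *Tyrobp* (−1.65, SE 0.63; edgeR adjusted p = 0.512). Without replicate 1 of the NR-treated male Alport mice edgeR called 8 of the 10 genes lower, not *Cd68* and *Csf1r*, against 4.54% of 15942 genes called lower, with a median of −1.83 for the markers. In females edgeR called 0 of 10 markers, 2 had an unadjusted p under 0.05, and edgeR called 0% of 16064 genes, with 1521 at an unadjusted p under 0.05. The female median difference was −0.71, and −0.42 without replicate 4 of the NR-treated Alport mice. *Cd14* had the largest difference (−1.37, SE 0.35; edgeR adjusted p = 0.376), which DESeq2 called (adjusted p = 0.0479) among 30 genes.

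NR-treated Alport mice were last compared with vehicle-treated controls, a comparison that shares mice with the others of that sex. In males 9 of 10 markers were higher, against 14.4% of 15077 genes called higher, with a median log2FC of 2.75, and the exception was *Csf1r* (0.92, SE 0.41; edgeR adjusted p = 0.132). The same 9 were called without any 1 mouse, with 1446 to 3970 genes called in either direction, against 3199 with all 8 mice. *Lyz2* had the largest difference (3.45, SE 0.54; edgeR adjusted p = 0.00502). The groups did not overlap for those 9 genes, and for *Csf1r* NR-treated replicates 2 and 3 (43.8 and 33.6 CPM) were within the controls. Of the 15077 genes tested, 2234 were higher without overlap. In females 8 of 10 markers were higher, against 11.9% of 15381 genes called higher, with a median of 1.90. *Csf1r* (0.10, SE 0.29; edgeR adjusted p = 0.841) and *Fcer1g* (1.41, SE 0.46; edgeR adjusted p = 0.0514) were not called. The female groups did not overlap for *Itgam*, *Cd14* and *Mrc1*, where 1802 of the 15381 genes tested were higher without overlap. The female count fell to 4 (*Cd68*, *Itgam*, *Cd14* and *Mrc1*) without any 1 of control replicates 1, 2 or 4 or NR-treated replicates 1 or 2, with 2288 to 2710 genes called in either direction (1135 to 1360 of them lower), against 3615 (1786 lower) with all 8 mice. It was 9 without control replicate 3 or NR-treated replicate 4, with 3080 and 4800 genes called. With replicate number added to the female fit as a block, edgeR called 3 markers (*Itgam*, *Cd14* and *Mrc1*) and 2292 genes.

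By the median, the markers varied more among the mice of 1 group than all genes did in each of the 8 groups. The median SD of log2 CPM over the 10 genes was 1.01 in NR-treated male and 1.04 in NR-treated female Alport mice, where 14054 genes had medians of 0.31 and 0.21. In vehicle-treated Alport mice it was 0.23 in males and 0.38 in females, against 0.16 and 0.15 for all genes. Control groups were at 0.29 (vehicle) and 0.49 (NR) in males and 0.60 (vehicle) and 0.24 (NR) in females, where all genes had 0.15, 0.21, 0.14 and 0.13 in the same order. The steadiest was *Cd14* in vehicle-treated male controls (SD 0.025) and the most variable *Lyz2* in NR-treated female Alport mice (SD 1.69).

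Across the 16 Alport mice the markers varied together, which is described here without a test, since all genes share the same libraries. Against the mean of the other 9 (log2 CPM), *Laptm5* was the closest by Pearson r (r = 0.988, rho = 0.938, r = 0.984 without the 2 farthest mice and r = 0.987 for deviations from the group means), and *Adgre1* by rho (0.971). *Cd68* had the lowest r over all 16 mice and the lowest rho (r = 0.894, rho = 0.818, r = 0.907 without the 2 farthest mice and r = 0.893 for deviations from the group means), and *Cd14* was lowest on the other 2 measures (r = 0.900, rho = 0.891, r = 0.867 without the 2 farthest mice and r = 0.890 for deviations from the group means). The search for similar genes covered the 14234 genes with a mean of at least 1 CPM over the 16 Alport mice. Outside the 10, the 5 genes most like the mean of the 10 by Pearson r were *Ly86*, *Gpr65*, *C1qc*, *Ms4a6c* and *C3ar1*. For *Ly86*, which encodes the partner of the receptor RP105, it was r = 0.992, rho = 0.947, r = 0.983 without the 2 farthest mice and r = 0.991 for deviations from the group means. *Gpr65*, a proton-sensing receptor, had r = 0.992 and rho = 0.982, and *C1qc*, a chain of complement C1q, r = 0.991 and rho = 0.956. *Ms4a6c* had r = 0.988 and rho = 0.924, and *C3ar1*, the receptor for complement C3a, r = 0.988 and rho = 0.959.

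Promoters of some of the 10 markers are shown with the letters that ETS factors such as PU.1, the product of *Spi1*, are known to bind. Any link of these letters to the shared variation of the markers was not tested. Windows of 250 bases before to 50 after the transcription start were taken from RefSeq (GRCm38.p6) for 6 of the 10 genes, *Cd68*, *Lyz2*, *Itgam*, *Laptm5*, *Fcer1g* and *Mrc1*. *Tyrobp* and *Adgre1* have no entry under these symbols among the windows used, and the windows of *Csf1r* and *Cd14* were not analysed here. The counts below therefore describe these 6 genes and not all 10 markers. The motifs GAGGAA and GGAAGT were searched on both strands, and since they share the letters GGAA, 1 stretch can hold both. At least 1 of them was found in 5 of the 6 windows, GAGGAA in 4 and GGAAGT in 4, and neither in that of *Fcer1g*. Over all 32851 promoter windows of this length, 28.3% hold GAGGAA, 23.8% hold GGAAGT and 43.4% hold either, and a match describes the letters only. The window of *Cd68* is chr11:69666121-69666420 (minus strand), that of *Lyz2* chr10:117282223-117282522 (minus strand), that of *Itgam* chr7:128062390-128062689 (plus strand) and that of *Laptm5* chr4:130913066-130913365 (plus strand), each printed from 5′ to 3′ on the strand of the gene with matches on either strand in capitals.
Cd68 promoter: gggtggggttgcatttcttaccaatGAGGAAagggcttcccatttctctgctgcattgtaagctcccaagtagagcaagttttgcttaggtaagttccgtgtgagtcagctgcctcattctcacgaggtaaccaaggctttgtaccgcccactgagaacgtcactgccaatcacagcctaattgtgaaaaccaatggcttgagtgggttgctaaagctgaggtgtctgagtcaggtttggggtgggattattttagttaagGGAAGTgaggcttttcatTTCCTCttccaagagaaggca
Lyz2 promoter: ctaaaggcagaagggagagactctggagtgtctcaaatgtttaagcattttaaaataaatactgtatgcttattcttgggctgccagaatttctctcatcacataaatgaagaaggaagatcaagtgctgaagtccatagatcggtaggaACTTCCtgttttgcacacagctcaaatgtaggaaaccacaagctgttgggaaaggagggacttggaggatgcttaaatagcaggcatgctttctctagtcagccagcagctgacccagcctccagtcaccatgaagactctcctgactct
Itgam promoter: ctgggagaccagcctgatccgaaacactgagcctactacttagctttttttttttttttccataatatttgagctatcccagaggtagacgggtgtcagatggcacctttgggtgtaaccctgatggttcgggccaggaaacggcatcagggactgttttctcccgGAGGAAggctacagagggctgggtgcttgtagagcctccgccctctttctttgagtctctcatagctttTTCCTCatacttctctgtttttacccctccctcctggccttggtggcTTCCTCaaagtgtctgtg
Laptm5 promoter: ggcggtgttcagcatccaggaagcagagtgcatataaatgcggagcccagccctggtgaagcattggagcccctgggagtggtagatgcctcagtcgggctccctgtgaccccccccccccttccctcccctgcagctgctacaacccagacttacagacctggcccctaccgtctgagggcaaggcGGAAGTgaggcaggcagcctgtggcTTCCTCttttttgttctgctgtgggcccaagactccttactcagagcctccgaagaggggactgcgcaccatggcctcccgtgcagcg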

How the data were processed

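Poly(A) libraries of 32 kidney cortex samples had been sequenced and processed by the authors with BioJupies, and mm10 stands in the submitters' processing notes; aligner settings, gene annotation and strand are not given in the sources used here. The deposited counts are raw whole numbers per gene symbol, made by the authors, with 1 column per mouse. The deposited log10 values equal log10(CPM + 1) of those counts (0 values apart by more than 1e-09) and served only for that check. Of 32544 genes, 7938 had 0 counts in all mice. Total counts per mouse had a median of 22071395. The lowest count of a marker in a mouse was 22 (*Tyrobp*), so the lowest markers rest on few counts, though not at the limit of detection. Of 48 pairs of mice within a group, none agreed within sampling noise (lowest chi-square per degree of freedom 7.56).

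Levels are CPM with library sizes scaled by the trimmed mean of M values, and log2 CPM used a prior count of 2. Each comparison was fitted with edgeR 4.0.16 (quasi-likelihood test; limma 3.58.1, R 4.3.3) on its 8 mice, and interactions on 16, after filterByExpr with a minimum count of 10. Benjamini-Hochberg adjustment ran over all genes tested, the threshold was 0.05, and the sex-genotype interaction also needed at least 2-fold. The scripts were tested on simulated data. Alternatives were DESeq2 1.42.0, relative log expression size factors, no low-count filter, all 32 mice in 1 fit, a replicate block, a 2-fold limit and leaving out each mouse. Positions came from GENCODE M21, and tables and plots were made with Python 3.11.15, pandas 2.3.3, numpy 2.4.6 and matplotlib 3.10.9.

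The 10 markers and the other gene lists were chosen with earlier results of these data known, and some genes of the lists are not reported here by name. Examples of a list are its 2 most abundant genes or other genes of the list, and the 5 genes most like the markers were those with the highest Pearson r over the 16 Alport mice.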

Additional observations from a re-analysis of the deposited data

Results flagged for a closer look

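In 10 of 80 groups of 4 mice, 8 for each of the 10 markers, 1 mouse lay apart from the other 3 by Dixon's ratio, the gap to the nearest mouse divided by the range of the group, above a critical value at which chance flags about 1 in 20 groups. The 10 markers were measured in the same mice and varied together, so the 80 groups are not independent. The number flagged is therefore not a test against chance. The ratio is given in parentheses. NR-treated male Alport replicate 1 was high in *Itgam* at 55.7 CPM against 12.04 to 13.1 CPM in the others (0.975), *Cd14* at 63.0 CPM against 19.1 to 22.9 CPM in the others (0.912) and *Mrc1* at 57.9 CPM against 13.3 to 14.1 CPM in the others (0.983). Among NR-treated male controls, replicate 2 was high in *Adgre1* at 7.79 CPM against 4.09 to 4.11 CPM in the others (0.996), and replicate 4 was low in *Cd14* at 5.75 CPM against 11.2 to 12.1 CPM in the others (0.855). Of the vehicle-treated female mice, control replicate 3 was high in *Itgam* at 4.90 CPM against 2.14 to 2.47 CPM in the others (0.881), and Alport replicate 2 was low in *Mrc1* at 19.1 CPM against 28.8 to 29.0 CPM in the others (0.976). In vehicle-treated males, control replicate 4 was high in *Cd68* at 2.66 CPM against 1.88 to 1.92 CPM in the others (0.946), control replicate 2 was low in *Tyrobp* at 0.983 CPM against 1.52 to 1.63 CPM in the others (0.838), and Alport replicate 4 was low in *Laptm5* at 61.5 CPM against 81.8 to 85.0 CPM in the others (0.863). Why these mice stood apart was not tested.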

How the results depend on the processing

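The increase of all 10 markers in Alport mice on vehicle kept its direction and its call in both sexes under each alternative fit and without any 1 mouse; with a 2-fold limit it was 10 of 10 in males and 9 of 10 in females. Over the 8 comparisons of 2 groups, interactions not counted, 967 of the marker log2FC under an alternative kept direction and side of the threshold, 32 lost the call, 15 gained it and 26 changed sign, and the cause was not tested.

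DESeq2 called 2 markers for NR in male controls, 1 for NR in female Alport mice (*Cd14*) and 1 in the female NR-genotype interaction (*Cd14*). For NR-treated Alport against vehicle-treated control mice, *Csf1r* was also called in males with all 32 mice in 1 fit, and *Fcer1g* in females with that fit, with DESeq2 and without the low-count filter. Leaving out each mouse in turn gave 0 to 4 markers called for NR in male Alport mice (median log2FC −1.05 to −0.15), 0 to 1 in female Alport mice, 0 to 3 in male controls, 4 to 9 for NR-treated Alport against vehicle-treated control females, and 0 to 8 in the male NR-genotype interaction (median −1.83 to −0.85). The median of the female NR-genotype interaction was −1.02 to −0.42, with 0 markers called without any 1 mouse, and that of the sex-NR interaction was −0.74 to 0.29. Signs of small differences turned without 1 mouse. For NR in male Alport mice the ranges were −0.64 to 0.031 for *Cd68* and −1.03 to 0.090 for *Itgam*. For NR in female controls they were −0.30 to 0.21 for *Cd68*, −0.34 to 0.20 for *Adgre1*, −0.38 to 0.43 for *Lyz2*, −0.17 to 0.32 for *Itgam*, −0.16 to 0.015 for *Csf1r*, −0.21 to 0.29 for *Laptm5*, −0.081 to 0.59 for *Tyrobp*, −0.30 to 0.19 for *Fcer1g* and −0.10 to 0.30 for *Mrc1*. For NR-treated Alport against vehicle-treated control females the range was −0.20 to 0.35 for *Csf1r*.

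Mice that share a replicate number did not all vary together. The correlation of their deviations from group means, over the 14054 genes with a mean of at least 1 CPM, was −0.268 to 0.375 in 32 pairs, and over 0.1 in 7. In none of the 8 comparisons was it over 0.1 in all pairs. Mice with different numbers were not correlated as a reference, so whether the numbers pair the mice was not settled. For female Alport against control mice on vehicle it was 0.237, 0.236 and 0.165 in replicates 2, 3 and 4, and 0.003 in replicate 1. With the replicate block, edgeR called 0 markers for NR in male controls and 3 for NR-treated Alport against vehicle-treated control females (*Itgam*, *Cd14* and *Mrc1*), and the other counts of markers called did not change. For NR in female controls the block gave 0.045 for *Lyz2*, 0.025 for *Itgam* and 0.012 for *Laptm5*, and for NR-treated Alport against control females −0.013 for *Csf1r*. It called 309 genes for NR in male controls (without it 666), 371 for NR in female controls (924) and 2292 for NR-treated Alport against control females (3615).

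Counts of all genes called moved more. With DESeq2 they were 62 for NR in male Alport mice (edgeR 0), 728 in female Alport mice (75), 1641 in male controls (666), 1493 in female controls (924), 114 in the sex-genotype interaction (46), 1 in the sex-NR interaction (0) and 18 and 30 in the male and female NR-genotype interactions (0 each). With all 32 mice in 1 fit they were 88, 253 and 18 for NR in male Alport, female Alport and female control mice, 6819 for NR-treated Alport against control males (3199), 4 in the sex-genotype interaction and 1 in the male NR-genotype interaction. Without the low-count filter they were 116 for NR in female Alport mice and 3 in the female NR-genotype interaction. A 2-fold limit, which can only lower a count, left 2611 of 7790 and 2043 of 7199 genes for genotype in males and females, 207 and 87 for NR in controls, and 1709 and 1159 for NR-treated Alport against control, and without that limit the sex-genotype interaction had 86. Leaving out each mouse gave 0 to 380 and 9 to 166 genes for NR in male and female Alport mice, 74 to 1886 and 395 to 809 in controls, 1446 to 3970 and 2288 to 4800 for NR-treated Alport against control, 16 to 59 in the sex-genotype interaction, and 0 to 782 and 0 to 45 in the male and female NR-genotype interactions. With 4 mice a group, a marker not called is not shown to be equal between groups.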
